A study of Mus musculus with 17 samples.

Results

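Antioxidant and thiol redox genes encode the enzymes and small proteins that remove superoxide, peroxides and reactive electrophiles and keep protein thiols reduced. The set has 41 genes in 10 families, and 38 of them could be measured out of 18193 genes with a probe set that carries their symbol alone. Of the other genes, the peroxiredoxin Prdx1 shares each of its probe sets with Gm21399, and Prdx5 and Prdx6 are not named by any probe set used here. The 38 genes had 78 probe sets, and each gene was read from its brightest, chosen by the mean over 15 samples without regard to group. Members were chosen by name and function, with earlier results of these data known.

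Superoxide dismutases turn superoxide into hydrogen peroxide, which catalase, glutathione peroxidases and peroxiredoxins then reduce. Glutathione and thioredoxin supply the electrons, glutathione transferases attach glutathione to electrophiles, and metallothioneins bind zinc and copper through their many cysteines. The transcription factor NRF2, held in check by KEAP1, induces many of these genes under oxidative stress. Sod2 and catalase are textbook targets of the FOXO transcription factors, and the study treated knockout mice with the antioxidant N-acetylcysteine, so that the levels of these genes without FOXO are a question of their own.

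RNA of laser-captured dentate gyrus was hybridised to Affymetrix mouse expression arrays. KO samples were from mice whose floxed Foxo1, Foxo3 and Foxo4 were deleted by hGFAP-cre, which is active in progenitors of both neurons and glia, on a mixed FVB and B6 background, and WT samples were the controls. There were 8 KO and 7 WT samples, for which the sources used here give no age, sex or treatment. A KO library 433CA13 and a WT library 437CA13 carry a further mark, CA13, that the sources do not explain, and were kept out of both groups. The labels name only brain as the tissue. Each sample has a mark of its own, read here as an animal although the sources do not say so, so p-values reflect only how much these samples vary, some of which may be technical. By a number in their labels the arrays fall into a larger series, with 6 KO and 5 WT samples, and a smaller one, with 2 KO (391 and 390) and 2 WT (393 and 392).

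Foxo1, the check of the KO label, averaged 280 ± 187 signal units (SD, n = 8) among KO samples and 10298 ± 4379 (SD, n = 7) among WT samples, with no overlap. The mean level of 12 granule neuron markers was 10.95 to 11.24 on the log2 scale in 14 of the 15 unmarked samples and 8.19 in the KO library labelled 433. That library had a mean of 11.03 for 14 markers of CA pyramidal neurons, against 8.30 to 8.99 in the others. With all 17 libraries, 437CA13 stood with it (8.03 and 10.75), and 433CA13 with the granule libraries (11.17 and 8.42), the reverse of mark 437. The 9 measured oligodendrocyte markers had a mean 0.43 higher in KO (two-sided exact permutation test, p = 0.060), while the 14 astrocyte markers had a difference of -0.01. In these samples of whole captured tissue, fewer cells of a type and less RNA per cell cannot be told apart.

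No antioxidant or thiol redox gene passed the test between KO and WT. Of the 38 genes, 22 had a higher and 16 a lower mean in KO, and the median log2 fold change was 0.03, beside 0.01 over all genes. limma called 0 of the 38 at an adjusted p under 0.05, against 0.0133% of all probe sets, and the smallest adjusted p of a member was 1.00. At an unadjusted p under 0.05 limma had 1 member, 2.63%, against 3.05% of all genes. Complete separation of KO from WT was seen for 0 members and for 0.022% of all genes.

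The intervals show how large a change these arrays leave room for. The log2 fold changes lay between -0.53 and 0.29, with standard errors of 0.11 to 0.46 (median 0.21). For 35 of the 38 genes the 95% interval lay inside a 2-fold change in either direction, and for 27 inside 1.5-fold. The exceptions to the 2-fold bound were Sod3, Mt3 and Gpx4, whose intervals reached down to -1.05, -1.22 and -1.08. These intervals come from the fit with genotype alone, so differences in level between the array series count in them as error. For Gpx4 that difference, described below, was 1.70. Intervals with the series in the model are not given here. All fold changes are on the log2(signal + 32) scale, which understates the change of dim genes. The 6 genes with a mean signal under 100, Sod3, Slc7a11, Gsr, Hmox1, Gpx3 and Gpx7, are the ones most affected.

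**Figure D1:**
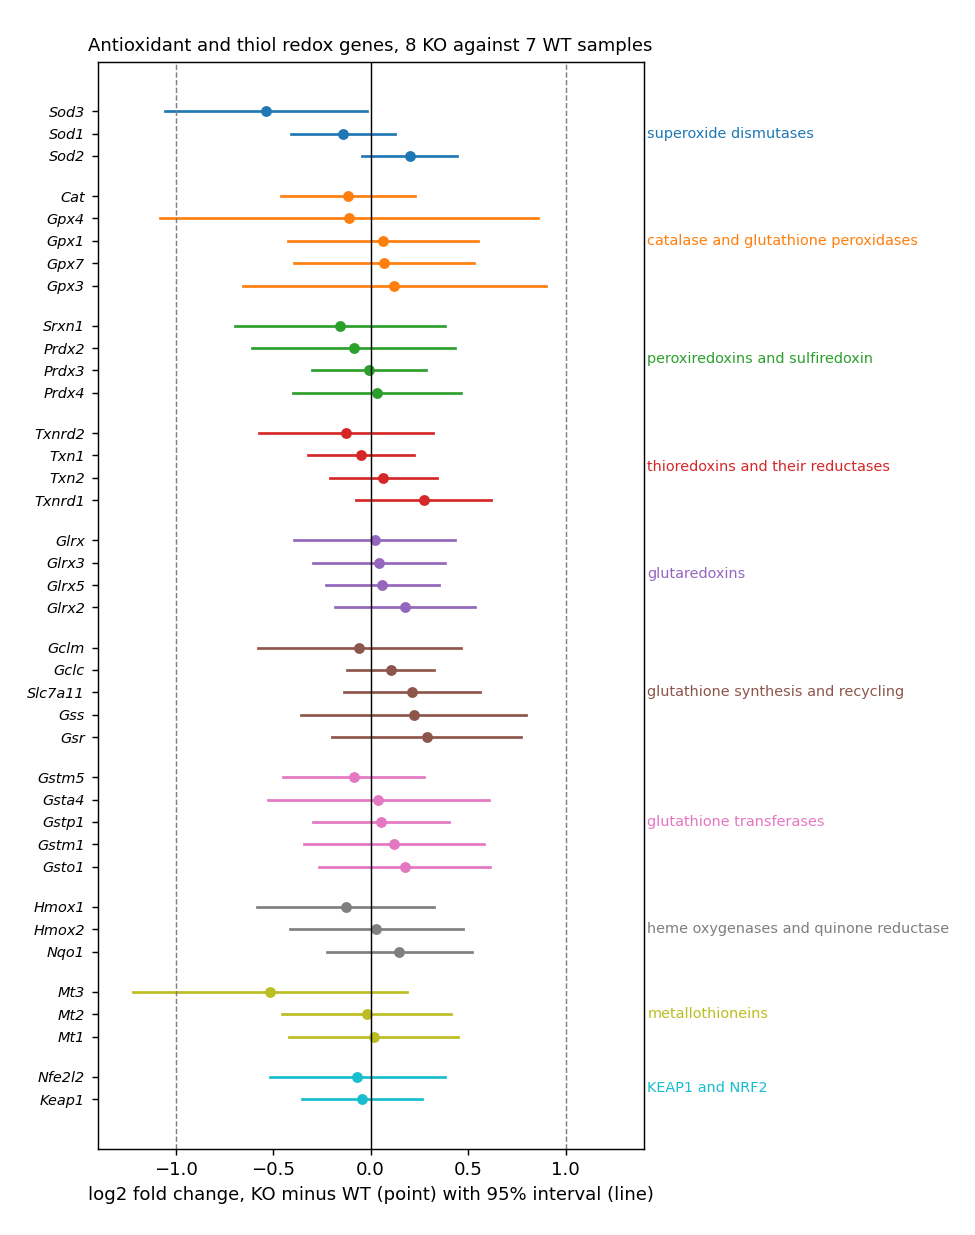
Log2 fold change, KO minus WT, of the 38 measured genes by family (point) with its 95% interval (line), from 8 KO and 7 WT samples, and dashed lines at a 2-fold change. The points lie between -0.53 and 0.29, and 35 of the 38 intervals stay inside the dashed lines.

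Among the superoxide dismutases, the mitochondrial enzyme Sod2 (chromosome 17, 13007839 to 13018119 of GRCm38.p6) had a slightly higher mean in KO. Its level was 12.48, 12.72 and 13.06 (lowest, median, highest) in KO and 12.20, 12.57 and 12.80 in WT. The groups overlapped over most of their range, with the library labelled 433 the highest of all 15 and the WT sample 206 the lowest. The log2 fold change was 0.20 (95% interval -0.04 to 0.44), or 1.15-fold (two-sided exact permutation test, p = 0.076). Without the library labelled 433 it was 0.15 (limma, unadjusted p = 0.18). The 3 dimmer Sod2 probe sets had log2 fold changes of 0.23, 0.08 and 0.17.

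Sod3, the extracellular superoxide dismutase (chromosome 5, 52363804 to 52369738), had the smallest p of the 38. It had levels of 5.19, 6.41 and 6.65 in KO and 6.15, 6.60 and 7.01 in WT. The 3 KO samples 903, 390 and MS15 lay below every WT sample and the other 5 lay within the WT range. The log2 fold change was -0.53 (95% interval -1.05 to -0.02, limma unadjusted p = 0.043, two-sided exact permutation p = 0.069). Its mean signal was 51.6, and its other probe set, at a mean signal of 13.7, had a log2 fold change of -0.00. The value was -1.19 with a pseudocount of 1, -0.22 with the higher pseudocount and -0.27 as the mean of both probe sets. Leaving out any of KO 903, 390 and MS15 or WT 206, 437, 385 and MS17 took its unadjusted p above 0.05. The cytosolic Sod1 had 14.60, 14.89 and 15.20 in KO and 14.69, 15.21 and 15.34 in WT, and its log2 fold change of -0.14 (95% interval -0.41 to 0.13) did not pass.

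Catalase (chromosome 2, 103453904 to 103485153), which splits hydrogen peroxide, did not pass the test. Cat levels were 12.36, 12.73 and 13.31 in KO and 12.42, 12.79 and 13.30 in WT, almost the same range. The log2 fold change was -0.11 (95% interval -0.46 to 0.23, two-sided exact permutation p = 0.50), and its dimmer probe set had 0.09. The selenium-dependent glutathione peroxidases Gpx1 and Gpx3 had 0.07 and 0.12, the ER-resident Gpx7 had 0.07, and Gpx4, which reduces lipid peroxides in membranes, had -0.11 with the largest standard error of the set, 0.46.

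**Figure D2:**
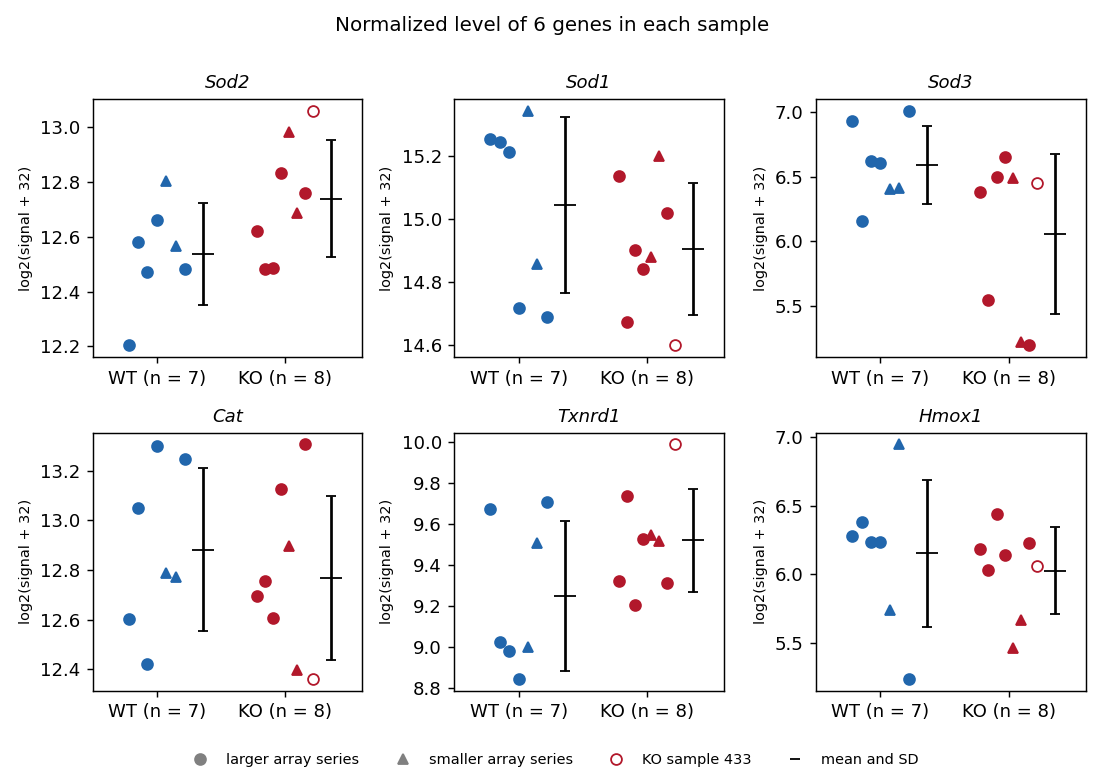
Normalized log2(signal + 32) of 6 genes in 7 WT and 8 KO samples, with circles for the larger array series, triangles for the smaller series, an open circle for the KO sample 433, and bars for the mean and SD. KO and WT overlap in every panel, and in Sod3 the 3 lowest KO samples lie at 5.19 to 5.55, below the lowest WT sample at 6.15.

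None of the 8 thioredoxin and glutaredoxin genes passed the test. Txnrd1, the cytosolic thioredoxin reductase, had levels of 9.20, 9.52 and 9.99 in KO and 8.84, 9.02 and 9.71 in WT. The lower 4 of the 7 WT samples lay below every KO sample and the upper 3 within the KO range. The log2 fold change was 0.27 (95% interval -0.08 to 0.62, two-sided exact permutation p = 0.12). It was 0.14 with 433CA13 in place of 433 and 0.07 as the mean of its probe sets, of which the dimmer ones had -0.10 and 0.05. The mitochondrial reductase Txnrd2 had -0.13, the cytosolic thioredoxin Txn1 -0.05 and the mitochondrial thioredoxin Txn2 0.07. All 4 glutaredoxins had a value above 0, led by the mitochondrial Glrx2, with levels of 10.63, 10.79 and 11.52 in KO and 10.24, 10.71 and 11.17 in WT. Its log2 fold change was 0.18 (95% interval -0.18 to 0.54), and those of Glrx, Glrx3 and Glrx5 were 0.02 to 0.06. Peroxiredoxins Prdx2, Prdx3 and Prdx4 had -0.09, -0.01 and 0.03, and sulfiredoxin Srxn1, which repairs overoxidised peroxiredoxins, had -0.16.

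Glutathione synthesis and recycling had the largest family median, 0.21, with 4 of 5 genes above 0 and 0 past the test. Gsr, the reductase that regenerates glutathione, had levels of 5.76, 6.84 and 7.29 in KO and 5.96, 6.43 and 6.87 in WT, and a log2 fold change of 0.29 (95% interval -0.20 to 0.77), which was 0.06 in the larger array series and 0.93 in the smaller, 0.15 with the higher pseudocount and 0.18 as the mean of its probe sets. Slc7a11, the cystine importer, had 6.26, 6.93 and 7.24 in KO and 6.24, 6.72 and 6.91 in WT. Its log2 fold change was 0.21 (95% interval -0.14 to 0.56), and its other probe set, about as bright, had 0.07. Gsr and Slc7a11 were dim, with mean signals of 62.8 and 81.3, where the median signal per array was 88.1 to 123. Gclc, the catalytic subunit of the rate-limiting enzyme of glutathione synthesis, had 10.21, 10.55 and 10.71 in KO and 10.23, 10.41 and 10.61 in WT. Its interval was the narrowest of the set, -0.12 to 0.33 around 0.10. Glutathione synthetase, Gss, had 0.22 and the modifier subunit Gclm -0.06. The dimmer probe sets had 0.05 for Gclc, 0.05 for Gss and -0.27 for Gclm.

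Nqo1 and Hmox1, both induced by NRF2, did not pass the test. Nqo1, the quinone reductase often used as a readout of NRF2, had levels of 6.79, 7.16 and 7.48 in KO and 6.62, 6.85 and 7.45 in WT, with a log2 fold change of 0.15 (95% interval -0.22 to 0.52). Hmox1, the inducible heme oxygenase, had 5.46, 6.10 and 6.44 in KO and 5.23, 6.24 and 6.95 in WT, with -0.13 (95% interval -0.58 to 0.33), and the constitutive Hmox2 had 0.03. Both Hmox1 extremes belonged to WT samples, MS17 and 392. NRF2 itself (Nfe2l2) had -0.07 and Keap1 -0.05. Of the 5 glutathione transferases, Gsto1, the omega-class enzyme, had 11.70, 12.40 and 13.05 in KO and 11.64, 12.24 and 12.96 in WT. Its log2 fold change was 0.18 (95% interval -0.26 to 0.61), and the other 4 lay between -0.09 and 0.12. Without the library labelled 433, Gsto1 had 0.08 and Gsta4 had -0.19 in place of 0.04. Gstm1 and Gstm5 have close relatives, and probes of one may read another.

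Metallothioneins Mt1 and Mt2 had log2 fold changes close to 0. Mt1 had levels of 12.98, 13.42 and 14.04 in KO and 13.03, 13.17 and 14.30 in WT, with a log2 fold change of 0.02 (95% interval -0.42 to 0.45). Mt2 had 11.97, 12.40 and 12.98 in KO and 11.88, 12.29 and 13.19 in WT, with -0.02 (95% interval -0.46 to 0.41). Both signs turned in several other settings. Mt3, the brain form, had 5.56, 6.72 and 8.24 in KO and 6.73, 7.39 and 8.41 in WT, and its log2 fold change was -0.52 (95% interval -1.22 to 0.19, two-sided exact permutation p = 0.18). Over the samples left out, the Mt3 value ranged from -0.70 (without KO 386) to -0.32 (without KO 903). With a pseudocount of 1 it was -0.76, and with the higher pseudocount -0.28.

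The 40 probe sets that were not the brightest of their gene gave no call either. Their log2 fold changes lay between -0.32 and 0.59, 22 of the 40 had the same sign as the brightest, and 1 had an unadjusted p under 0.05. That was a dim Srxn1 probe set with 0.52 (limma, unadjusted p = 0.043), while the brightest Srxn1 probe set had -0.16. Probe sets of 1 gene did not give 1 direction for Srxn1, Txn1, Glrx2, Gsto1, Gstm1 or Cat, among others.

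Of 68 further redox genes listed by function, 63 were measured. limma called 0 of the 63, 26 had a higher and 37 a lower mean in KO, and their median was -0.02. Only Selenop, the secreted selenium carrier, had an unadjusted p under 0.05, with a log2 fold change of -0.67 and a standard error of 0.17, and its adjusted p from limma was 1.00. That is 1 of 63, where 3.05% of all genes had such a p. Selenop had -0.39 in the larger array series and -1.44 in the smaller.

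The genotype comparison was then taken apart by array series. The median of the 38 log2 fold changes was 0.11 in the larger series and -0.13 in the smaller series, beside 0.02 and -0.01 over all genes. Glutathione transferases had the widest gap between the series, with medians of 0.29 and -0.26. The interaction of genotype and series was called for 0 members and for 0% of probe sets, and 0 members, against 4.25% of all genes, had an unadjusted interaction p under 0.05 (limma). Sod3 had -0.54 and -0.55 in the larger and the smaller series, Sod2 0.23 and 0.15, and Cat -0.11 and -0.13. Other genes differed more between the series without passing the interaction test: Gsr had 0.06 and 0.93, Gsta4 0.30 and -0.64, Srxn1 0.09 and -0.75 and Hmox1 0.11 and -0.78. Each value of the smaller series rests on 2 KO and 2 WT samples. Hmox1 was at 6.95 in WT 392 but 5.74 in WT 393, beside 5.46 and 5.66 in KO. For Gsr, Gsta4 and Srxn1 both WT samples lay on the same side of both KO samples. Without WT 392 the median of the 38 over both series was 0.11, in place of 0.03. Mt1 and Mt2 had 0.13 and 0.14 in the larger series and -0.17 and -0.34 in the smaller series.

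Mt1, Mt2, Gpx1, Gpx4, Gstm5, Gstp1 and Hmox2 differed in level between the array series themselves. This comparison was chosen after the metallothionein values were seen. With genotype in the model, limma called 7 of the 38 members higher in the smaller series, 18.4% against 6.33% of all genes, and 0 lower, against 4.24%. The 38 had a median log2 difference of 0.29, beside 0.07 over all genes, and 78.9% of them had a value above 0, beside 58.1% of all genes. The largest difference among the 7 was that of Gpx4, 3.26-fold, and Mt1 was 1.79-fold higher.

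Mt1 and Mt2 lie side by side on chromosome 8, and their promoters are shown because both genes were higher in the smaller series and because metals act on them through metal response elements. Each window runs from 250 bases before to 50 after 1 RefSeq start of the gene (GRCm38.p6, both on the plus strand). These 2 starts are 6471 bp apart. The Mt1 gene record begins at 94178883, before the start used for its window, while the Mt2 record begins at the start used. Capitals mark the letters TGCACNC and TGCGCNC, the core of a metal response element, searched on both strands. There were 3 matches in Mt1 and 4 in Mt2, with no overlap between matches. In each window 1 match began within 120 bases before the start used. The other Mt1 matches lay after that start, and the other Mt2 matches lay farther upstream or after it. All 3 Mt1 matches lay after the beginning of the Mt1 gene record. Their position thus depends on the start chosen, and whether they are transcribed was not tested. Mt1 is shown from chr8:94178839-94179138 and Mt2 from chr8:94172368-94172667.
Mt1: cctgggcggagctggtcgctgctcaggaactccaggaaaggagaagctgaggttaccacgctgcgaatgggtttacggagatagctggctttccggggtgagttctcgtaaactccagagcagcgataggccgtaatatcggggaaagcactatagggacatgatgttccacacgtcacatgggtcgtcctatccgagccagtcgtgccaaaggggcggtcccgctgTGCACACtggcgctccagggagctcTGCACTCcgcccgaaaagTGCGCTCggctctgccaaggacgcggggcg
Mt2: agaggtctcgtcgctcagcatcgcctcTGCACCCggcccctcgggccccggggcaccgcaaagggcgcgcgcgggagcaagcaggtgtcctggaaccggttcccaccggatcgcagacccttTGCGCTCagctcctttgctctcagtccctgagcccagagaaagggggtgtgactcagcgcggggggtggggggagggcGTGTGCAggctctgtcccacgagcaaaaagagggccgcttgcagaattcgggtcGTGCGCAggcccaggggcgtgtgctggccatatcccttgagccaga
These letters are common: 25.7% of the 32851 promoter windows of the table hold at least 1 match, and so do 14 of the 47 windows (29.8%) of the 35 members that have one. The Mt2 window also holds 1 match to TGACNNNGC, the core of the antioxidant response element through which NRF2 acts, found in 17% of the members' windows and 12.4% of all. The FOXO letters GTAAACA were found on either strand in 3.65% of all windows and among the members only in those of Glrx2 and Slc7a11, and the windows of Sod2 and Cat hold none.

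Mt1 levels in the smaller series were 14.04 in KO 391, 13.92 in KO 390, 13.997 in WT 393 and 14.30 in WT 392. In the larger series they were 12.98, 13.17 and 13.52 (lowest, median, highest of 11), so all 4 samples of the smaller series lay above all 11 of the larger. The log2 difference was 0.84 (95% interval 0.59 to 1.09, adjusted p = 0.00075 from limma). A second, much dimmer Mt1 probe set had 0.76 (adjusted p = 0.087).

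Mt2 showed the same separation. Its levels were 12.98 in KO 391, 12.70 in KO 390, 13.18 in WT 393 and 13.19 in WT 392, against 11.88, 12.25 and 12.51 in the larger series. The log2 difference was 0.80 (95% interval 0.52 to 1.08, adjusted p = 0.0018 from limma). Mt3 did not share it beyond its error, with 0.36 (95% interval -0.43 to 1.14).

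Gstm5, a mu-class glutathione transferase, had 11.82 in KO 391, 11.83 in KO 390, 12.07 in WT 393 and 12.09 in WT 392, against 11.07, 11.27 and 11.54 in the larger series. It was higher by 0.68 (95% interval 0.47 to 0.90, adjusted p = 0.0011 from limma), again with no overlap. Hmox2, the constitutive heme oxygenase, had 11.54 in KO 391, 11.69 in KO 390, 11.56 in WT 393 and 11.93 in WT 392, against 10.60, 10.81 and 11.27. It was higher by 0.80 (95% interval 0.51 to 1.09, adjusted p = 0.0024 from limma), the last of the 4 genes whose series did not overlap.

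The remaining 3 overlapped. Gpx4 had 12.26, 11.99, 11.43 and 13.03 in KO 391, KO 390, WT 393 and WT 392, against 9.54, 10.35 and 11.68 in the larger series, a difference of 1.70 (95% interval 1.01 to 2.40, adjusted p = 0.0047 from limma). Its dimmer probe set had 0.57 and did not pass (adjusted p = 0.35). The probe sets read for Gpx4, Gsto1, Gss, Prdx4, Mt1, Sod1 and Gclc carry a suffix that marks probes able to bind related transcripts. Gpx1, the cytosolic glutathione peroxidase, differed by 0.79 (adjusted p = 0.012) and Gstp1, the pi-class transferase, by 0.51 (adjusted p = 0.028). Both lost their call when WT 392 or KO 390 was left out (for WT 392, adjusted p = 0.073 and 0.16), while Mt1, Mt2, Gstm5, Hmox2 and Gpx4 kept theirs without each sample in turn. The 2 genotypes were balanced over the series, and the KO library labelled 433 lay in the larger series. Without it the 7 kept their call and Txnrd2 and Glrx joined them.

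**Figure D3:**
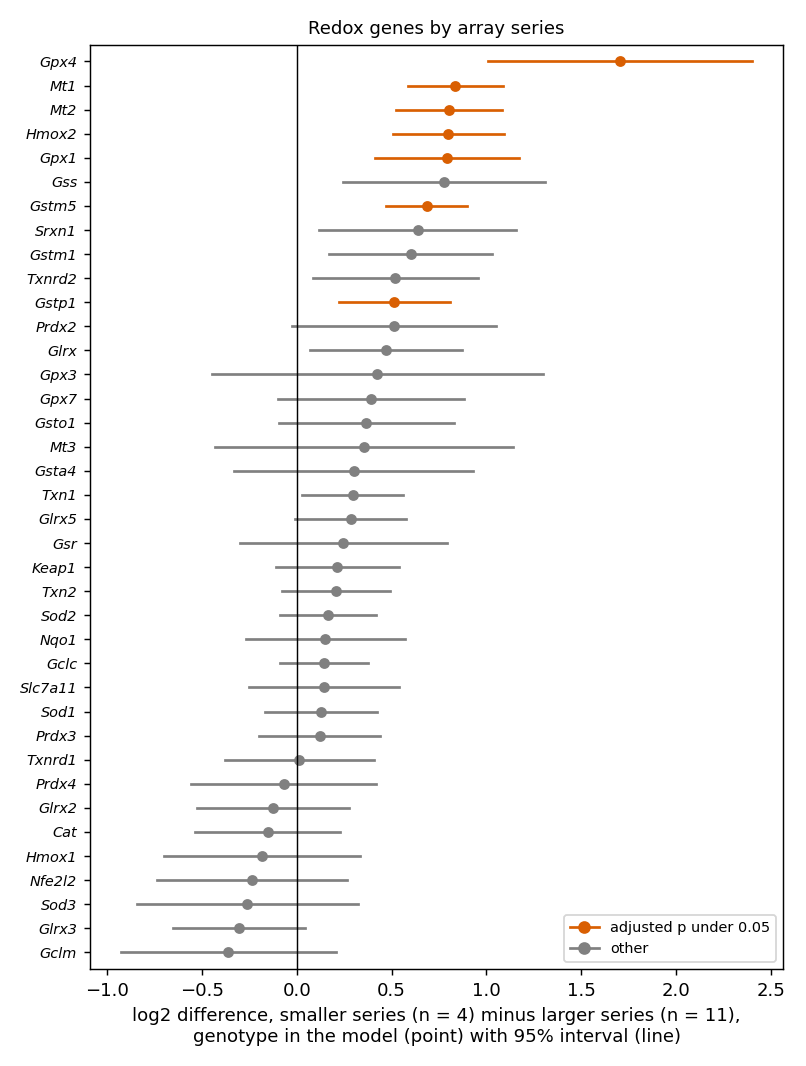
Log2 difference between the smaller array series (4 samples) and the larger series (11 samples) for the 38 genes, with genotype in the model (point) and its 95% interval (line), orange where the adjusted p is under 0.05. The 7 orange genes, from Gstp1 at 0.51 to Gpx4 at 1.70, all lie above 0, and 8 genes lie below 0 with none called.

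RNA quality, taken as the log2 ratio of the 3' to the 5' Gapdh control signal, was 5.11 to 5.37 in the smaller series and 5.04 to 6.41 in the larger series. With this score in the model, 5 of the 7 kept their call, and Gpx1 and Gstp1 lost it. The astrocyte marker mean was 9.76 to 9.98 in the smaller series and 9.29 to 10.02 in the larger series, and the granule marker mean 10.95 to 11.12 and 8.19 to 11.24. The part of these cell markers in the difference was not tested. The sources used here do not say what the series numbers stand for.

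Members that work together were compared across the 15 samples in 8 pairs, with p-values adjusted over the 8. Mt1 and Mt2 had a Pearson r of 0.93 (permutation test, adjusted p = 0.00016) and a Spearman rho of 0.84 (permutation test, adjusted p = 0.0011), but the pooled value spans the gap between the series. Within the 11 samples of the larger series, r was 0.64 (permutation test, p = 0.038, adjusted p = 0.31), and the smaller series has too few samples for a value. Without the 2 samples farthest from the median, WT 392 and KO 391, r was 0.87. The Mt1 probe set carries the suffix for probes able to bind related transcripts, and whether those include Mt2 was not tested. Gstm1 and Gstm5 had r = 0.64 (rho = 0.59, permutation test, adjusted p = 0.030 and 0.090). Without WT 392 and WT 41 r was 0.53 (permutation test, adjusted p = 0.26), and within the larger series it was 0.13. In the smaller series Gstm5 was higher by 0.68 and Gstm1 by 0.60, the latter short of a call. The part of these differences in the pooled r was not tested. The other 6 pairs, among them Gclc with Gclm and Txn1 with Txnrd1, did not pass.

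**Figure D4:**
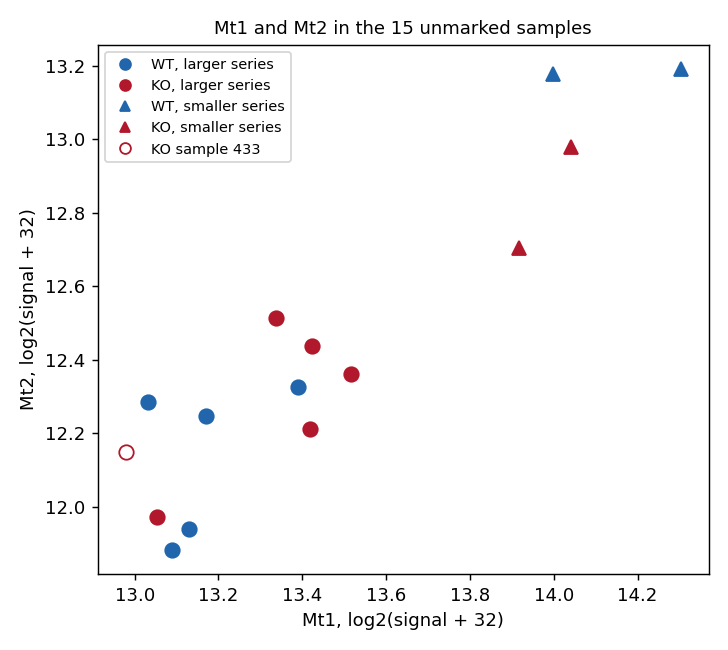
Mt2 against Mt1, both as normalized log2(signal + 32), in the 15 unmarked samples (WT blue, KO red). Triangles stand for the smaller array series, circles for the larger series and an open circle for the KO sample 433. All 4 triangles lie at 13.92 or higher in Mt1 and at 12.70 or higher in Mt2, apart from the 11 circles. KO and WT are mixed among the circles, and among the triangles both WT samples lie above both KO samples in Mt2.

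Since several of these enzymes are abundant in astrocytes, each of the 38 was also set against the mean of the 14 astrocyte markers. Over the 38 relations, 0 passed after adjustment. The strongest were Gpx1, with r = 0.59 (rho = 0.59, permutation test, adjusted p = 0.42 for each), Txnrd1 with r = -0.56 and Gstm5 with r = 0.55.

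The libraries with the further mark allowed a comparison of granule cell and CA field profiles within a mark. For the WT mark 437, the library high in CA markers is 437CA13, and for the KO mark 433 it is the library labelled 433, so that differences are given as 437CA13 minus 437 and as 433 minus 433CA13. Each side is a single library, and the differences have no replicate check beyond the second pair. In the first pair 3 of the 38 members were at least 2-fold higher, 7.89% against 7.16% of all genes, and 1 was lower, against 6.1%. In the second, 3 were higher, against 6.3%, and 1 was lower, against 5.68%. The sign was the same in both pairs for 21 of the 38 genes, 55.3%, beside 64.0% of all genes.

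Gsta4 (chromosome 9, 78191966 to 78209349), a glutathione transferase that acts on the lipid peroxidation product hydroxynonenal, was the only member past 2-fold in the same direction in both pairs, where 2.54% of all genes were higher in both and 2.24%, but 0 members, lower in both. Its level was 11.95 in 437CA13 and 9.32 in 437, a difference of 2.63 or 6.2-fold. It was 11.25 in the library labelled 433 and 9.18 in 433CA13, a difference of 2.08 or 4.22-fold. The other 15 libraries lay between 9.06 and 10.29, below both. In the granule libraries of these marks Gsta4 stood near the low end of that range.

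Sod2 was also above the other 15 libraries in both, though by less. It had 13.12 in 437CA13 and 12.47 in 437, and 13.06 in 433 and 12.53 in 433CA13, which is 1.57-fold and 1.45-fold. The highest of the other 15 was at 12.99, so the margin was smaller than the spread among them. The 3 dimmer Sod2 probe sets had differences above 0 in both pairs too, from 0.11 to 0.59.

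Gss, which completes glutathione, went the other way. It had 10.82 in 437CA13 and 11.68 in 437, and 11.31 in 433 and 12.76 in 433CA13, and both CA-profile libraries lay below the other 15, whose lowest was at 11.37. Its second probe set had differences of -0.55 and -0.93. Mt1 was the other gene below all others in both, with differences of only -0.10 and -0.38.

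Further genes had the same sign in both pairs but lay within the range of the other libraries in at least 1 of them. Gsto1 had differences of 1.03 and 0.74, Glrx, the cytosolic glutaredoxin, 0.61 and 1.80, and Gclm 0.60 and 0.65. Txnrd1 went in opposite directions, with -0.83 and 1.03, and so did Sod3, with -1.42 and 0.48. Cat had 0.00 and -0.77, and Gpx3 1.19 and 0.07.

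**Figure D5:**
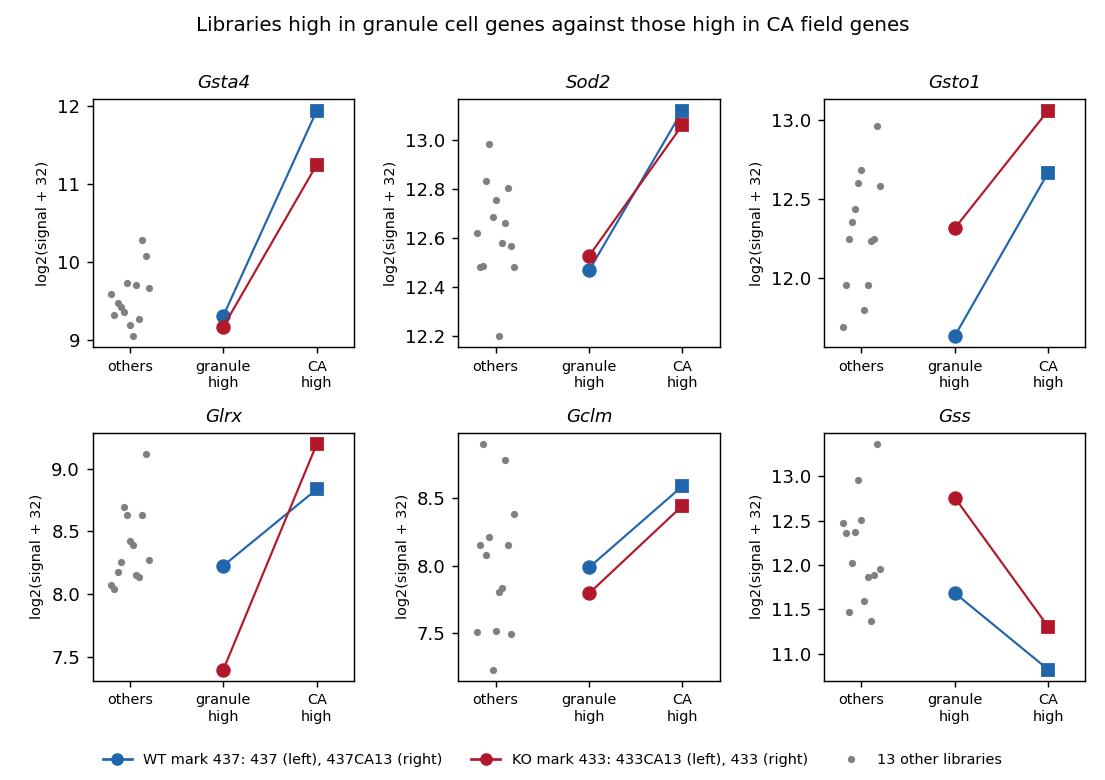
Normalized log2(signal + 32) of 6 genes in the library of each mark that is high in granule cell markers (circle) and in the one high in CA field markers (square), joined by a line, with WT mark 437 in blue, KO mark 433 in red and the 13 other libraries in grey. Gsta4 goes from 9.32 to 11.95 and from 9.18 to 11.25, above every grey point, and Gss is lower in both.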

How the data were processed

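The authors deposited linear signal intensity values, 1 for each probe set on each array. The submitters' processing notes give MAS5 as their source, and the methods give RMA and SAM. Every array had a 2% trimmed mean of 500 in the deposited table, and the median signal per array was 88.1 to 123. Arrays have no read depth, so their number limits the precision. After leaving out 64 control probe sets, 32 was added, log2 taken and the 15 unmarked arrays quantile normalized (all 17 for the CA13 pairs). limma 3.58.1 in R 4.3.3 fitted genotype over 45037 probe sets, with eBayes and an intensity trend, and Benjamini-Hochberg adjustment was applied. Exact permutation tests ran over 6435 splits in R, and correlations over 100000 permutations (numpy, with ranks from scipy). Gene names came from the platform annotation, in which 34945 probe sets have 1 symbol, 932 several and 9160 none, and coordinates from GRCm38.p6.

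The members, the lists and the tests were chosen with earlier results of these data known. Values in each group are given for the 10 members with the smallest p and for Sod2, Cat, Mt1, Mt2, Hmox1 and Nqo1, and for the pairs the members with the largest difference of the same sign. The comparison of array series was added after seeing the data. The fit was tested on simulated data. Other settings were no quantile normalization, a pseudocount of 1 or 128, only probe sets above a mean signal of 100, other choices of samples, the array series or RNA quality in the model, no variance trend, the t-test of the methods and the mean over probe sets. RMA could not be repeated, since scanner files were not used here.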

Additional observations from a re-analysis of the deposited data

Results flagged for a closer look

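In 6 of 76 groups of samples, 1 sample stood so far from the rest of its genotype that its gap passed Dixon's 95% critical value, which chance alone does in about 1 in 20 groups. Gsta4 was at 11.26 in the KO library labelled 433, with the next KO sample at 9.75, and that library is also high in CA field markers. Gss was at 13.36 in WT sample 392, with the next WT sample at 11.96, and Keap1 at 10.67 in the same sample, with the next at 10.18. Sample 392 also held the highest WT level of Mt1, Gpx4, Gpx1, Gstp1, Hmox2 and Hmox1. Gpx7 was at 5.90 and Slc7a11 at 6.26 in KO sample 386, with the next at 6.72 and 6.84, both in the dim range. Txn2 was at 10.80 in KO sample 390, with the next at 10.44.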

How the results depend on the processing

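The count of 0 members called between KO and WT held in every alternative run, as did the 0 further redox genes and the 0 interactions. The member count at an unadjusted p under 0.05, 1 in the report, was 0 within the larger series, with RNA quality as a covariate, with dim probe sets left out (which drops Sod3) and with the t-test of the methods, and 0 to 2 when each sample was left out. Of 401 recomputed fold changes of 15 named genes, 380 kept their sign, 21 turned and 0 gained or lost a call. These counts hold the run without the library labelled 433 both as a setting of its own and among the samples left out. Mt1 turned to -0.07 without quantile normalization and -0.18 within the smaller series, with a range of -0.07 to 0.16 over the samples left out. Mt2 turned to 0.02 without the library labelled 433, 0.01 with the series as a block, 0.14 within the larger series and 0.00 with RNA quality, with a range of -0.11 to 0.11. Hmox1 turned to 0.11 within the larger series, with a range of -0.28 to 0.01, and Glrx2 and Gsto1 to -0.14 and -0.08 within the smaller series. These values are near 0 beside their errors. For 437CA13 against 437, the members past 2-fold were 4, and 2 with the higher pseudocount. At 1.5-fold there were 11 in that pair and 10 in the other. Of 8 pairs of members 2 correlated, 1 without the 2 farthest samples and 0 within the larger series. The number of members higher in the smaller series, 7 in the report, was 5 to 9 over the settings run for it. Those were no quantile normalization, the 2 pseudocounts, RNA quality in the model and samples left out. It was not recomputed with the dim filter, without the variance trend, by the t-test or as the mean over probe sets. Dim signal limits Sod3, Slc7a11, Gsr, Hmox1, Gpx3 and Gpx7. No paired analysis was possible because the labels do not pair KO with WT samples.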
